A study of Caenorhabditis elegans with 2 samples.

Results

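The cuticle collagen genes of Caenorhabditis elegans were described for binding of MXL-3, a Max-family DNA-binding protein with a basic helix-loop-helix and a leucine zipper. Members were the protein-coding genes of the Ensembl annotation whose symbol is col- followed by a number (156 genes) and 15 genes named for a mutant body shape: rol-6, sqt-1, sqt-2, sqt-3, bli-1, bli-2, dpy-2, dpy-3, dpy-4, dpy-5, dpy-7, dpy-8, dpy-9, dpy-10 and dpy-13. They made 171 of 19973 protein-coding genes. The rule uses names only and no measured value, but the members were chosen with earlier results of these data known.

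The measurements were chromatin immunoprecipitation sequencing peaks from 1 group with 2 biological replicates. The worms were mixed-sex L4 larvae of strain OP745, 48 hours old, synchronised by bleaching and starvation as L1 larvae. Both replicates carried the allele unc-119(tm4063) and the transgene wgIs745, which holds an mxl-3::TY1::EGFP::3xFLAG fusion and the rescue marker unc-119(+), and the immunoprecipitation used an anti-GFP antibody on chromatin sonicated to between 200 and 800 bp. The profile is therefore that of a tagged protein made from a transgene in a single strain, and whole larvae were used, so no peak can be assigned to the epidermis or to any other tissue. No second condition was measured, and every comparison sets the collagen genes beside other genes of the same animals.

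Cuticle collagens are small secreted proteins with Gly-X-Y repeats that the epidermis makes and crosslinks into the cuticle, the exoskeleton of the worm. The cuticle is built anew at each moult, and collagen genes are switched on in waves within each moulting cycle. The products of dpy-2, dpy-3, dpy-7, dpy-8, dpy-9 and dpy-10 form the circumferential furrows, those of bli-1 and bli-2 form the struts of the adult cuticle, and col-19 is an adult-stage collagen. Most col- genes are known only as members of the family. L4 larvae stand before the last moult, in which the adult cuticle is made.

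The coding sequences bore out the family name. A run of at least 5 uninterrupted Gly-X-Y triplets was found in 170 of 171 members, with a median longest run of 21 triplets and a maximum of 155, and in 180 of the 19802 other protein-coding genes (0.909%). The exception was col-17, whose longest run in the annotated frame was 1 triplet.

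The authors' list that passed the irreproducible discovery rate (IDR) threshold held 3935 peaks. Replicate lists and a list made from both replicates together (the pooled list) held 30000 peaks each, background included. A gene was called bound where an IDR summit lay from 1000 bp upstream to 200 bp downstream of 1 of its transcript starts. Each peak carries the authors' signal value, which has no stated scale and no error, so it serves to rank peaks within a list, with rank 1 the strongest. Read depth behind the peaks is unknown. Intervals are exact Clopper-Pearson intervals at 95%, cover counting error only and treat genes as independent.

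MXL-3 summits stood in the promoter window of cuticle collagen genes at a share close to that of genes in general. Of the 171 members 18 were bound (10.5%, interval 6.36 to 16.1%), and of all 19973 protein-coding genes 2259 were bound (11.3%). The comparison depends on how summits are assigned. When each summit was given to the nearest start within 2000 bp on either side, 31 members had one (18.1%), against 12.4% of all genes. Of these 31 members 16 were among the 18. This rule also takes summits more than 200 bp downstream of the start, such as the coding summits of col-122, col-140 and col-19 described below. Members that had only a summit 1000 to 2000 bp upstream numbered 4 (2.34%, interval 0.641 to 5.88%), and the share of all genes was 3.85%. The members are spread unevenly over the chromosomes, but if they had been bound at the all-gene share of each chromosome the count would have been 19.5. On X, where 17.1% of all genes were bound, 3 of 30 members were bound (10%). On I, where 11.9% of all genes were bound, 4 of 22 members were bound (18.2%, interval 5.19 to 40.3%).

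**Figure D1:**
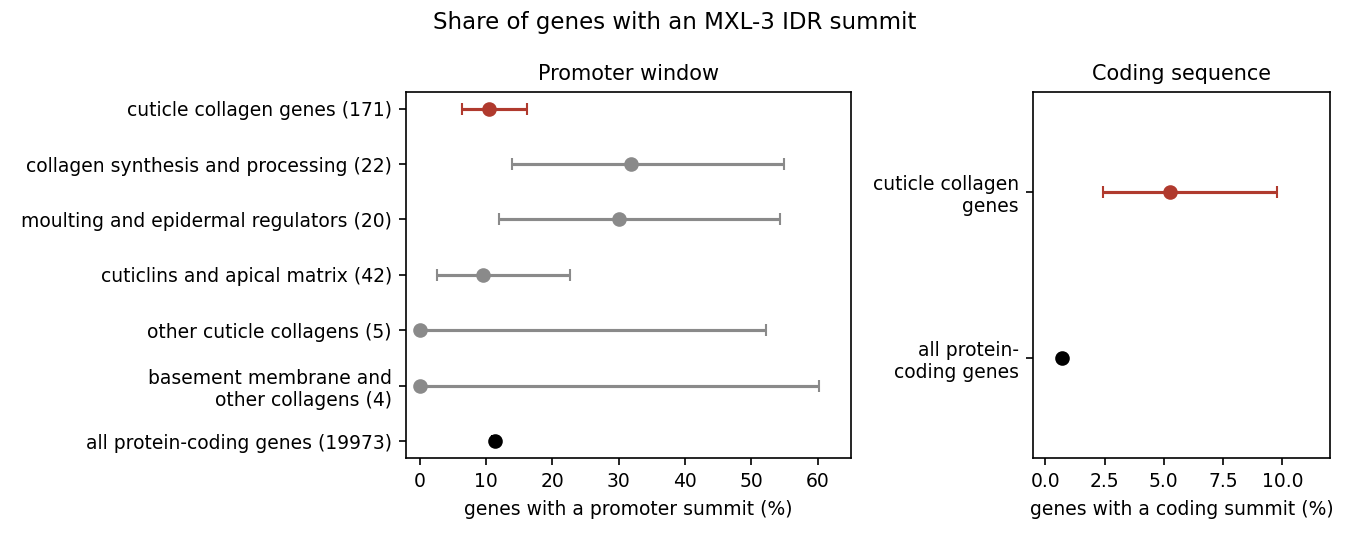
Share of genes with an IDR summit in the promoter window (left) and in their own coding sequence (right), in percent, with exact 95% intervals; the number of genes stands beside each list on the left. In the promoter window the cuticle collagen genes (10.5%) lie beside all protein-coding genes (11.3%), whereas in coding sequence they lie at 5.26%, against 0.711% of all protein-coding genes.

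Most bound members were numbered collagens without a mutant name: col-65, col-77, col-38, col-149, col-117, col-3, col-63, col-109, col-185, col-97, col-2, col-166, col-144, col-180, col-130 and col-49, or 16 of 156 col- genes (10.3%). Of the 15 genes with mutant names 2 were bound (13.3%, interval 1.66 to 40.5%), the furrow collagen gene dpy-10 and the body length collagen gene dpy-5. The 18 genes held 17 distinct peaks, because col-3 and col-117 shared 1. On the minus strand lie 15 of the 18 bound members (83.3%), 92 of all 171 members (53.8%) and 49.7% of the 2259 bound genes of the genome. The difference was not tested.

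The strongest promoter peak of a member stood at col-65 (WBGene00000641) on I, with its summit at position 11491503 (WBcel235), -925 bp from the start, where negative values lie upstream. It had a signal of 262 and rank 594 in the IDR list, and ranked 640 in replicate 1 and 568 in replicate 2. Next came col-77 (WBGene00000653) on II, with an intergenic summit at 8359514, -133 bp from the start. Its signal was 214 at rank 879, and its replicate ranks were 1055 and 812. These were the only 2 member promoter peaks among the strongest 983 of the 3935.

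The furrow collagen gene dpy-10 (WBGene00001072) had its summit on II at 6712556, -329 bp from the start, with a signal of 193 and rank 1066. The peak ranked 1486 in replicate 1 and 977 in replicate 2, and its summit lies within an exon of the noncoding RNA gene T14B4.14. The same peak lies 1736 bp upstream of dpy-2, the neighbouring furrow collagen gene, which had no summit in its own promoter window. Hence 1 IDR peak lies between these furrow genes, and it is nearer to dpy-10.

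At col-38 the summit (II, 8569502) lay -414 bp from the start with a signal of 176 and rank 1281, and its replicate ranks were 1598 and 1241. The window of rpl-5, a ribosomal protein gene, holds the same summit at -425 bp, and noncoding RNA genes F54C9.16 and F54C9.17 overlap it. The peak of col-149 (V, 10293125, intergenic) at -256 bp had a signal of 154 and rank 1623, with ranks of 1653 and 1701 in replicates 1 and 2. At this strength both replicates placed member peaks at close ranks.

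The divergent neighbours col-3 and col-117 share an intergenic peak on IV with its summit at 8824602, -181 bp from col-3 and -407 bp from col-117. It had a signal of 139 at rank 1937 and ranked 1858 in replicate 1 and 1672 in replicate 2. Only 46.6% of the 31-base words in the promoter window of either gene occur once in the genome, the lowest share among the members, but all words within 100 bp of the summit do (100%). Over all members the median share of such unique words was 100%, and 19 members (11.1%) were under 90%, against 14.6% of all genes.

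The remaining promoter summits of members had signals between 91.7 and 136. The summit of col-63 (rank 2035, -716 bp) lies in the 3' UTR of the homeobox gene ceh-8, those of col-109 (2062, -214 bp), col-97 (2198, -764 bp), col-2 (2870, -419 bp), col-166 (3058, -294 bp), col-144 (3162, -133 bp), col-180 (3235, -134 bp) and col-49 (3897, -7 bp) in intergenic sequence. The summit of col-185 (2071, -969 bp) is 25 bp from a tRNA gene, and 69.6% of the 31-base words around it were unique. That of col-130 (3873, -21 bp) is in an intron of ugt-65, a UDP-glucuronosyltransferase gene. In dpy-5 the summit (2540) lies 67 bp downstream of the start, within coding sequence. At col-2 the summit is nearer to ndc-80, a kinetochore gene, at -267 bp, and in the other 16 of 17 peaks a member start was the nearest.

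Sequences of 151 bases centred on the summit are shown for the peaks of dpy-10 and of the pair col-117 and col-3, because these carry the furrow gene and the shared peak, and for col-77, col-149, col-166 and col-144, because these are the member promoter peaks with a nuclear receptor half-site. They are on WBcel235, 5′ to 3′ on the strand of the gene. Capitals mark AGGTCA or its reverse complement TGACCT.
dpy-10, chrII:6712481-6712631, minus strand: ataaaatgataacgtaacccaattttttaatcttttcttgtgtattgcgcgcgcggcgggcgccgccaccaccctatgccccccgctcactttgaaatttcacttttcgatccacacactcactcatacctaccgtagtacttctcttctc
col-117, chrIV:8824527-8824677, minus strand: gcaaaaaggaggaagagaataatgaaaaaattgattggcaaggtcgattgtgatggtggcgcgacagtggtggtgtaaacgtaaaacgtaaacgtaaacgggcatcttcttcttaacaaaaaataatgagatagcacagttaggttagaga
col-77, chrII:8359439-8359589, minus strand: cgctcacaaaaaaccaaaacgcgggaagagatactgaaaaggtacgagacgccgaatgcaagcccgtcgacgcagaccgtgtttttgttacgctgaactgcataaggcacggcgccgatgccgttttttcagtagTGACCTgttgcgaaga
col-149, chrV:10293050-10293200, minus strand: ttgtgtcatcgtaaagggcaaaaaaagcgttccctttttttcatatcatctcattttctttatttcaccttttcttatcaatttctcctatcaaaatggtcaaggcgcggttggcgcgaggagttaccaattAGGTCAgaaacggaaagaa
col-166, chrX:6279647-6279797, plus strand: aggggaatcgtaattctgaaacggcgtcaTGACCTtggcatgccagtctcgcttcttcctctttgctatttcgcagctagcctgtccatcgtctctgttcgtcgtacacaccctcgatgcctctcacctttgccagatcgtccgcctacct
col-144, chrV:9160700-9160850, minus strand: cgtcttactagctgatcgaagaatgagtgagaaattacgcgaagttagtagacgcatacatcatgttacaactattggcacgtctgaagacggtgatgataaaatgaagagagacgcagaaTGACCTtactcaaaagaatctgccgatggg

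The positions of member summits were like those of other genes. The median offset over 18 members was -275 bp, against -251 bp over 2399 pairs of a summit and another gene, and 72.2% of member summits lay within 500 bp upstream, against 66.1%. Of the 17 member peaks 12 were intergenic (70.6%), and of the 1976 other promoter peaks 62.7%. Member peaks stood somewhat lower in the ranking, a difference that was not tested. The median signal of member peaks was 134.5 and their median rank 2071, against 140.6 and 1906.5 for the other promoter peaks. Among the strongest 983 peaks stood 2 of 17 member promoter peaks (11.8%, interval 1.46 to 36.4%). Of the others 27.7% stood there, a share within that interval. The highest member signal (262) compares with 1445 for the strongest promoter peak of all.

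**Figure D2:**
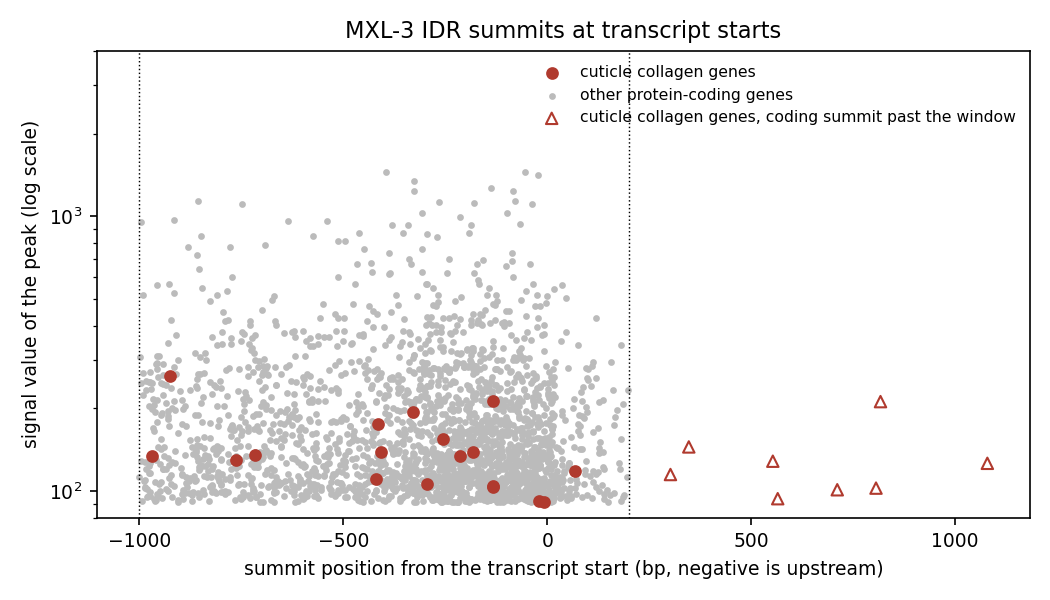
Signal value of each IDR peak (log scale, no stated unit) against the position of its summit from the transcript start in bp. Filled circles are cuticle collagen genes in the promoter window (dotted lines at 1000 bp upstream and 200 bp downstream), open triangles are cuticle collagen genes whose summit lies in coding sequence past that window, and grey points are promoter summits of other genes. Member promoter signals run from 91.7 to 262, while other genes reach 1445.

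Member promoter peaks were among the strongest peaks of both replicates about as often as other promoter peaks were. A peak with its summit within 100 bp was present in both replicate lists for 16 of 17 peaks, and col-130 had one in replicate 2 only. This match says little, because the replicate lists include background. The strongest 3935 pooled peaks gave the same counts of bound members (18) and of all bound genes (2259) as the IDR list. A peak in the IDR list therefore need not be strong, or present, in each replicate. Counting the strongest 3935 peaks of each replicate, 12 of 17 member promoter peaks were among them in both (70.6%), against 72.3% of the other promoter peaks. Replicate 1 placed 7 of the 16 higher and replicate 2 placed 9 higher. The largest differences were among the weaker peaks, though not at each of them. The peak of col-2 ranked 1851 in replicate 1 and 4615 in replicate 2, and that of col-180 ranked 6533 in replicate 1 and 3107. The peak of col-144 ranked 2110 and 5182, while that of col-49, the weakest of the members, ranked 5586 and 3698.

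**Figure D3:**
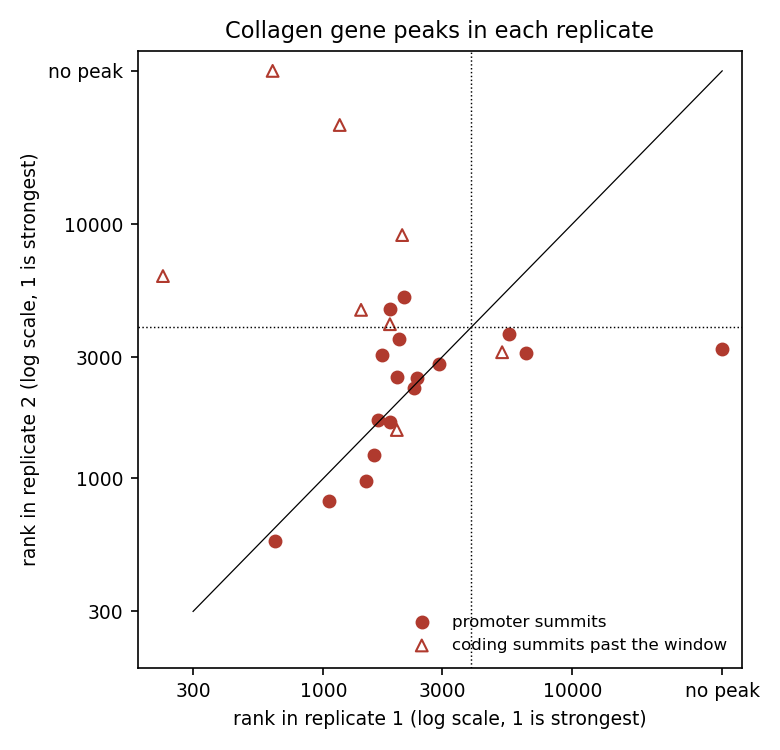
Rank of each cuticle collagen peak in replicate 1 (horizontal) and replicate 2 (vertical), on log scales where 1 is the strongest; circles are promoter summits, triangles are coding summits past the promoter window, dotted lines mark rank 3935 and the solid line marks equal ranks. Most circles lie near the line, whereas triangles such as col-122 (rank 227 in replicate 1, 6244 in replicate 2) lie far from it.

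Of the members with a summit only 1000 to 2000 bp upstream, col-94 had the strongest peak (III, 10989672), at -1799 bp in an intron of the dynein heavy chain gene dhc-4. Its signal of 322 and rank of 366 were above those of every member promoter peak, and it ranked 366 in replicate 1 and 410 in replicate 2. The peak of col-73 (II, 4874658, -1529 bp) had rank 743 and lies nearest to F11G11.15, at -187 bp. The peak of col-81 (II, 11015435, -1668 bp) had rank 3063, and the member dpy-2 has been described with dpy-10.

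Among the genes with mutant names, 13 of 15 had no IDR summit in the promoter window. Of the furrow collagens dpy-10 was bound and the other 5 of 6 were not, none of the 4 squat and roller collagens and neither of the 2 strut collagens was bound, and of the 3 other dumpy genes dpy-5 was bound. At 10 of the 13 the pooled list held a weaker peak in the window, and bli-2, dpy-4 and dpy-9 had none. The pooled peak of rol-6, a collagen whose mutants roll, was nearest to the threshold of rank 3935, at rank 4088 and -355 bp, with ranks of 5067 in replicate 1 and 3248 in replicate 2. The body size collagen gene dpy-13 followed at rank 4635 and -93 bp, with ranks of 10096 and 3226.

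Further down stood sqt-2 at rank 5301 (-158 bp), sqt-1 at 5605 (-100 bp), sqt-3 at 7487 (162 bp downstream), dpy-8 at 8382 (-100 bp) and dpy-2 at 10875 (-265 bp). The furrow gene dpy-3 had rank 13115, the strut gene bli-1 had rank 13663, and the furrow gene dpy-7 had rank 26612. Among numbered collagens the nearest to the threshold were col-145 at rank 4595 (-251 bp) and col-58 at rank 4766, 68 bp downstream in coding sequence. Ranks this low lie in the part of the pooled list that the authors passed to IDR with background included.

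Counting the whole pooled list, 88 members had a peak in the promoter window (51.5%, interval 43.7 to 59.2%), against 41.0% of all genes. Of the 153 unbound members 70 had such a peak and 83 had none. With the strongest 7870 pooled peaks the share was 21.1% of members (36, interval 15.2 to 27.9%), against 18.4% of all genes, which lies within the interval. With the strongest 20000 it was 40.4% (interval 32.9 to 48.1%), against 32.4%, and the share of all genes lay just outside the interval.

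Many members lie side by side, and 1 pair of neighbours was bound together. Starts within 10 kb of each other made 45 pairs from 57 members, of which 5 were bound (8.77%), against 13 of the 114 members outside pairs (11.4%). Both genes were bound in 1 pair (col-3 and col-117), 1 gene in 4 pairs and none in 40 pairs. With 10.5% of members bound, the counts are too small to read a relation between neighbours from them. Measured to any IDR summit, the median distance from a member start was 7911 bp, against 11117 bp for other genes.

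The canonical Max-family E-box CACGTG, which reads the same on both strands, lay within 100 bp of the summit in 0 of the 17 member promoter peaks (interval 0 to 19.5%). Of the 1976 other promoter peaks 290 had it (14.7%), a share that lies within the interval. At 500 bp to either side of the member summits it was present in 3 of 34 windows of equal size (8.82%). Beside the other promoter peaks it was in 143 of 3952 such windows (3.62%). In the whole promoter window, 21 members held CACGTG (12.3%), against 18.4% of all genes, and 2 of those 21 members were bound (9.52%). Among all genes with CACGTG in the window 16.5% were bound.

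For 2 other E-boxes the share of other promoter peaks lay within the interval of the members. CACATG (searched on both strands, like every motif that follows) was present at 2 of 17, col-65 and col-49 (11.8%, interval 1.46 to 36.4%). Of other promoter peaks 15.4% had it. CAAGTG was at 1 of 17, dpy-5 (5.88%, interval 0.149 to 28.7%), against 13.2%. The GATA factor motifs TGATAA and AGATAA were at 4 and 2 of 17 member peaks (23.5% and 11.8%), against 26.5% and 12.7% of other promoter peaks. The half-site AGGTCA, a sequence bound by nuclear hormone receptors, was at 4 of 17 (23.5%, interval 6.81 to 49.9%), against 7.24%, a share that lies within the interval. It was also more common in the promoter windows of the family as a whole, in 65 of 171 members (38.0%) and 26.7% of all genes. Median GC content at the summits was 44.3% for member promoter peaks and 44.3% for the others.

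In contrast to promoters, coding sequences of collagen genes held MXL-3 summits at a share above that of genes in general. An IDR summit lay in the gene's own coding sequence in 9 of 171 members (5.26%, interval 2.43 to 9.76%), against 142 of all protein-coding genes (0.711%). Members held 9 of the 144 coding summits (6.25%) with 0.68% of the coding bases, or 53.6 summits per Mb of coding sequence against 5.83 over all genes. Median coding length was 912 bp in members and 990 bp over all genes. This count was made after the promoter counts had been seen, and no test was made of it.

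The 9 genes were col-122, col-54, col-140, col-81, dpy-5, sqt-3, col-139, col-19 and col-175. Only dpy-5 also counted as bound at its promoter, by the same summit, so 26 members had a summit in either place. The strongest lay in col-122 (WBGene00000696; IV, 9564196), 817 bp from the start, with a signal of 212 and rank 895. In the separate lists its signal was 172 at rank 227 in replicate 1 and 41.1 at rank 6244 in replicate 2. The peak was therefore among the strong peaks of replicate 1 and below rank 3935 in replicate 2.

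The adult-stage collagen gene col-19 (WBGene00000608; X, 422418) had a coding summit 711 bp from the start, with a signal of 101 and rank 3320. It ranked 2074 in replicate 1 and 9050 in replicate 2. The squat collagen gene sqt-3 (WBGene00005018; V, 12353623), which is needed for a viable embryo, had a coding summit 302 bp from its nearest start, with rank 2679 and replicate ranks of 1852 and 4039. In both genes replicate 1 again gave the higher rank.

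Of the others, col-140 (V, 5836281) had rank 2232 and ranked 626 in replicate 1, with no matching peak in replicate 2. The peak in col-139 (V, 4653165; rank 3263) ranked 1164 in replicate 1 and 24512 in replicate 2, and that in col-81 (II, 11012688; rank 2298) ranked 1418 and 4598. The members whose coding peak replicate 2 placed higher were col-54 (rank 1809; 1974 in replicate 1 and 1550 in replicate 2), dpy-5 (2929 and 2811) and col-175 (rank 3750; 5227 and 3134). A peak was in both replicate lists for 8 of 9, and 2 of 9 ranked among the strongest 3935 in both, col-54 and dpy-5, against 12 of 17 member promoter peaks.

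The count therefore depends on the replicate. With the strongest 3935 peaks of replicate 1 alone, 17 members had a coding summit (9.94%), against 1.23% of all genes, and with those of replicate 2 alone 6 members (3.51%), against 0.711%. Here a gene counts where a replicate's own summit lies in its coding sequence, and by this rule dpy-5 and sqt-3 were called by each replicate alone. The summit of replicate 1 at col-54 lies outside the coding sequence, and replicate 2 has a further peak in the coding sequence of sqt-3, at rank 2722. Both this sqt-3 summit of replicate 2 (V, 12353434) and the dpy-5 summit lie inside the promoter window. The sqt-3 summit of replicate 1 (V, 12353679) lies past it. In either replicate the member share was above the share of all genes.

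Counting every summit inside the gene past the promoter window, introns included, 13 of 171 members had one (7.6%), against 3.07% of all genes. Median gene length was 1221 bp in members and 2027 bp over all genes.

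The difference in coding summits extended below the threshold. In the whole pooled list 109 members had a coding summit (63.7%, interval 56.1 to 70.9%), against 33.4% of all genes, and with the strongest 7870 peaks 33 members (19.3%), against 4.88%. The next members in order of rank were col-129 (3969), col-111 (4048), col-133 (4336), col-90 (4339) and the furrow gene dpy-8 (4361). Coding summits of the pooled list were present in 11 of the 15 genes with mutant names, and dpy-13, dpy-2, dpy-3 and sqt-2 had none.

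**Figure D4:**
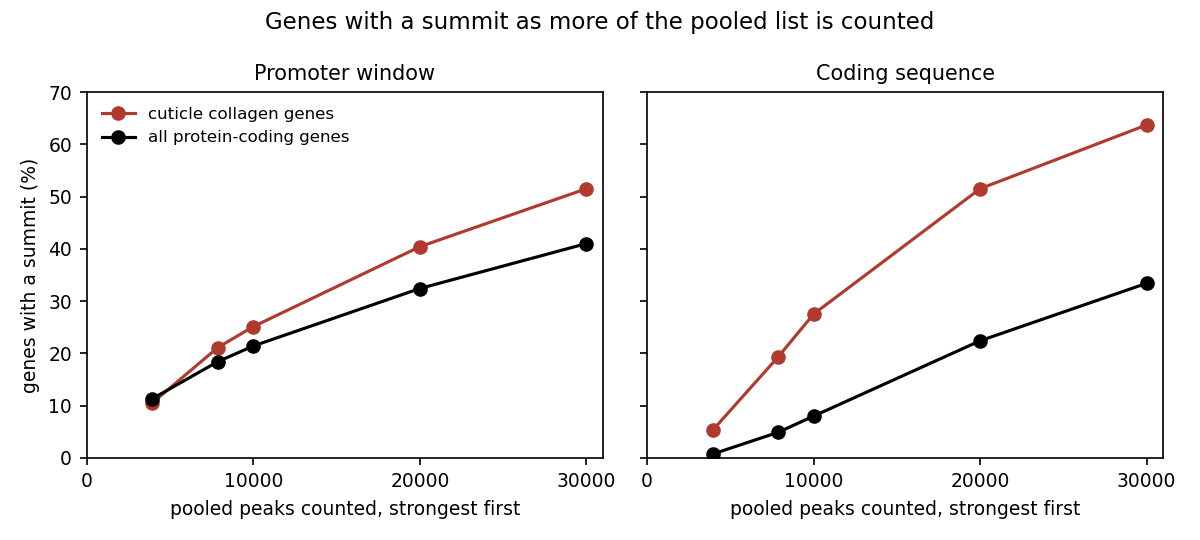
Percent of genes with a summit in the promoter window (left) and in their own coding sequence (right) as more of the 30000 pooled peaks are counted, strongest first, for cuticle collagen genes and all protein-coding genes. The promoter curves start together (10.5% and 11.3%) and end at 51.5% and 41.0%, and the coding curves are apart throughout and end at 63.7% and 33.4%.

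Base composition moved with this result. Median GC content was 55.1% in member coding sequences, against 42.5% over all genes, and 61.7% within 100 bp of member coding summits, against 44.8% at the 135 other coding summits. The part of GC content in the result was not tested. Words of 31 bases around the summit were unique in the genome for 100% of positions in 6 of the 9 genes, and for 98.2% in col-122, 71.9% in sqt-3 and 70.8% in col-54.

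The E-box that was not found at member promoter summits was present at most member coding summits, but not at those ranked high in both replicates. CACGTG lay within 100 bp of 6 of 9 (66.7%, interval 29.9 to 92.5%), in col-122, col-140, sqt-3, col-139, col-19 and col-175, against 26 of 135 coding summits of other genes (19.3%). None of these 6 summits had a matching peak among the strongest 3935 of both replicates. For col-175 only replicate 2 had such a peak, and for the other genes only replicate 1. The 2 member coding summits with such a peak in both, col-54 and dpy-5, had no CACGTG. The count of the hexamer therefore rests on peaks that did not rank this high in both replicates. The sequences of the CACGTG sites are shown because their position in the collagen repeat is the same in each. Each is 151 bases centred on the summit, on WBcel235 and the strand of the gene, with CACGTG in capitals. The window of col-81, which has no CACGTG, is given for comparison.
col-122, chrIV:9564121-9564271, plus strand: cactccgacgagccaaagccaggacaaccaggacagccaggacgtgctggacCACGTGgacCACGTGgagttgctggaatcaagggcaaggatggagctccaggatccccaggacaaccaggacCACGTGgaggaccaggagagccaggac
col-140, chrV:5836206-5836356, minus strand: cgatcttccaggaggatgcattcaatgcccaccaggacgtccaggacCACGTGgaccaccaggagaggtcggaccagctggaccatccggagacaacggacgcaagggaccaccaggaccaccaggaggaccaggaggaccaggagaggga
sqt-3, chrV:12353548-12353698, plus strand: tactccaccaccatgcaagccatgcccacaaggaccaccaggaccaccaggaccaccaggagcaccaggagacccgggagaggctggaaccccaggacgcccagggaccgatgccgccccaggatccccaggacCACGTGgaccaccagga
col-139, chrV:4653090-4653240, minus strand: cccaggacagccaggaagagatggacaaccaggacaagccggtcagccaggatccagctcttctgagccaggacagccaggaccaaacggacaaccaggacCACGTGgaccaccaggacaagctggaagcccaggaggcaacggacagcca
col-19, chrX:422343-422493, plus strand: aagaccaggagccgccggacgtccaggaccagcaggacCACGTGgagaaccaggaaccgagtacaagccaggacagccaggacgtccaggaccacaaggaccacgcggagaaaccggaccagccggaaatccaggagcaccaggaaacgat
col-175, chrX:9233978-9234128, minus strand: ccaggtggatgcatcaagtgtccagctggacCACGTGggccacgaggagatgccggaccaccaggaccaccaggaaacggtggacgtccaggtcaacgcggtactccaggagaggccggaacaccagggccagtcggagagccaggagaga
col-81, chrII:11012613-11012763, minus strand: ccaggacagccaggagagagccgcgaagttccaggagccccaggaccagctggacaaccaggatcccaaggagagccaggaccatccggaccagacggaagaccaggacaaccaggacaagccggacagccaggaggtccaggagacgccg

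The 8 CACGTG sites near these summits, 3 of them in col-122, all began at codon position 2 and were read as proline, arginine and glycine, with C before and G after the hexamer. The nearest site lay between 12 and 62 bp from the summit. Over windows of 102 bases centred on the sites the 6 genes were between 40.2 and 67.6% identical (median 55.9% over 15 pairs). In the window of col-81 the repeat continues without the hexamer.

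This reading was usual for the family. Of 97 CACGTG sites in the longest coding sequences of members, 87 began at codon position 2 (89.7%) and 58 were read as proline, arginine and glycine (59.8%). In other genes 46.8% of 6467 sites began there and 9.70% had that reading. At least 1 coding CACGTG was present in 67 members (39.2%), against 23.9% of all genes, and 9.95% of member coding bases lay within 100 bp of one, against 4.55%.

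Members were then split by the hexamer, a split made after the sites had been seen. The genes with it include the 6 whose coding summits had shown it within 100 bp, so the split gives no separate support. A coding IDR summit was present in 7 of the 67 members with a coding CACGTG (10.4%, interval 4.30 to 20.3%) and in 2 of the 104 without (1.92%, interval 0.234 to 6.77%). Over all genes the shares were 1.19% with the hexamer and 0.56% without. The other 60 members with the hexamer had no coding IDR summit.

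Genes that make, fold and crosslink collagen included some with peaks stronger than those of any collagen gene. Of 22 genes of collagen synthesis and processing 7 were bound (31.8%, interval 13.9 to 54.9%), where 11.3% of all genes were. The interval overlaps that of the collagen genes (6.36 to 16.1%), and the difference was not tested. The promoter peaks of pdi-1, pdi-2 and pdi-3 exceeded the highest member signal (262), and the other 4 had signals between 109 and 257, within the range of the members. All 3 protein disulfide isomerase genes of the list were among them, including pdi-2, whose product is a subunit of the prolyl 4-hydroxylase that modifies collagen. The summit of pdi-1 (III, 3701794, -333 bp) had a signal of 672, rank 53 and a CACGTG, with replicate ranks of 43 and 63, and that of pdi-2 (X, 4524131, -24 bp) had a signal of 517 at rank 102. The promoter summit of pdi-3 had a signal of 960 at rank 16 and a CACGTG, but lies nearer to the ubiquilin gene ubql-1.

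The sequence at the pdi-1 summit, on the strand of the gene with CACGTG in capitals, is shown as the strongest peak of this list that stands nearest to its own gene.
pdi-1, chrIII:3701719-3701869, minus strand: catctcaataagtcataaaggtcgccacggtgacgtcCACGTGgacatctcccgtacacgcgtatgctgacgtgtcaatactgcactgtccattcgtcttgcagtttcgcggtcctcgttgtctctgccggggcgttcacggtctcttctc

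The other bound genes of the list were mlt-7, a peroxidase gene of cuticle crosslinking (rank 614), sec-23, a coat protein gene of vesicles that leave the endoplasmic reticulum (rank 782, with a CACGTG, nearer to dcs-1), dpy-11, a thioredoxin-like gene (rank 988), and the prolyl isomerase gene fkb-3 (rank 2935, with a CACGTG). The hexamer was at 4 of 7 of these peaks, among them those of pdi-3 and sec-23, which lie nearer to other genes. It was at 0 of 17 member promoter peaks (interval 0 to 19.5%) and at 14.7% of the promoter peaks outside the members. These counts are small, and the difference was not tested.

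Regulators of moulting and the epidermis had 6 of 20 genes bound (30%, interval 11.9 to 54.3%), beside 11.3% of all genes, and 4 of 20 (20%) with the strongest peaks of replicate 2 alone, beside 11.4%, or with a window of 500 bp upstream to 100 bp downstream, beside 8.55%. Their strongest peaks stood at myrf-1, a membrane-bound transcription factor gene of the moulting cycle (rank 163, -284 bp), lin-42, the Period homologue (rank 322), peb-1 (rank 483) and mab-10, a cofactor gene of the larval to adult switch (rank 656). The peaks of the epidermal GATA factor gene elt-3 (rank 3639) and of the moulting receptor gene nhr-23 (rank 3923) were near the threshold. None of these 6 peaks had a CACGTG within 100 bp of its summit.

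Of 42 cuticlin and apical matrix genes 4 were bound (9.52%, interval 2.66 to 22.6%), beside 11.3% of all genes: cut-2 (rank 1460), cutl-23 (1928), lpr-3 (2151) and noah-2 (3155). Of 5 cuticle collagen genes outside the naming rule (lon-3, dpy-14, dpy-17, bli-6 and rol-8) 0 were bound, and of 4 collagen genes of basement membranes and other sites (emb-9, let-2, cle-1 and mec-5) 0 were bound. With so few genes these counts allow bound shares of up to 52.2% and 60.2%, the upper bounds of their intervals. In coding sequence, 0 of the 5 cuticle collagen genes outside the rule had an IDR summit, beside 0.711% of all genes. A pooled summit lay in the coding sequence of 5 of the 5, beside 33.4% of all genes.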

How the data were processed

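Peaks of MXL-3 tagged with EGFP were analysed from 2 biological replicates of 1 group. The authors deposited peak lists on assembly ce11, which has the sequence of WBcel235: 1 per replicate, 1 pooled and 1 that passed the IDR threshold, per the listings deposited with each replicate. The authors' deposited signal value ranks peaks within a list, and the deposited −log10 of the q-value served only to order ties. The aligner, the peak caller and the control strain were not given in the sources used here, and the sequencing depth is unknown.

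Gene models were those of Ensembl release 115, and the sequence was that of RefSeq for WBcel235. Positions are 1-based. Gly-X-Y runs were counted in coding sequences translated here, since no protein table was used. A replicate peak matched an IDR peak where its summit lay within 100 bp. Motifs were searched within 100 bp of the summit on both strands. Uniqueness was the share of 31-base words found once in the genome on either strand. Intervals are exact Clopper-Pearson intervals at 95%, and no test was made, since 1 group was measured. On planted summits, 20 of 20 members were recovered by the promoter rule. The tools were scipy 1.17.1, pandas 2.3.3, numpy 2.4.6 and matplotlib 3.10.9 under Python 3.11.15.

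The members, the 5 related lists and the rule for named genes were chosen with earlier results of these data known. The rule named every bound member and every member with only a summit 1000 to 2000 bp upstream, the 15 listed genes, the 5 unbound members with the strongest pooled promoter peak, up to 6 bound genes of each related list and any gene nearer to a member's summit. Of the list names ram-4 matched no gene symbol. Genes with coding summits and the coding E-box were chosen after the data were seen. Alternatives were other windows, start choices, peak sets, single replicates and motif distances.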

Additional observations from a re-analysis of the deposited data

How the results depend on the processing

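Of 37 alternative values 28 stayed within 1.5 times the reported count and 9 moved further. Members with a summit numbered 31 (18.1%, against 12.4% of all genes) when each summit was given to the nearest start within 2000 bp, downstream summits included. Bound members numbered 7 (4.09%, against 5.99%) when the IDR list was cut to its stronger 1967 peaks, and 36 with 7870 pooled peaks. With single replicates they numbered 17 to 20, of which 16 were shared with the reported 18 each time. A CACGTG was at 1 of 17 member promoter peaks within 200 bp, and at 0 with either replicate alone. Other cuticle collagens had 1 bound gene with either replicate alone. Coding summits, an alternative chosen after seeing the data, were in 6 to 17 members with single replicates, 2 with those 1967 peaks (1.17%, against 0.2% of all genes) and 33 with 7870 pooled peaks. No paired analysis was possible because 1 group was measured. The unknown depth limits what can be said of unbound genes.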

Other observations

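Of the 13 members with an IDR summit inside the gene past the promoter window, 5 had it outside coding sequence. Introns of col-173 (X, 6876469, 1067 bp from the start, rank 2042), col-109 (IV, 1819161, 1092 bp, rank 1762) and col-85 (II, 12494704, 391 bp, rank 2255) held one. The summits of col-99 (IV, 144014, 3905 bp, rank 1104) and col-72 (II, 3521556, 2624 bp, rank 3323) lay in annotated exons that are neither coding sequence nor UTR, and that of col-72 is nearest to the start of W09G10.9, at -244 bp. These genes were named after their values were seen.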
